A study of Saccharomyces cerevisiae with 9 samples.

Results

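The genes described here make the soluble machinery that feeds and drives the yeast ribosome: 22 translation factors and 18 cytosolic aminoacyl-tRNA synthetases, 40 genes chosen by name. On the arrays 37 of the 40 had a probe set, 19 factors and all 18 synthetases, out of 5449 genes of Saccharomyces cerevisiae measured in all. Cultures in rich YPD medium were given bisphenol A (BPA), the monomer of polycarbonate plastics, at mid-exponential phase. There were 3 control cultures, which received ethanol alone, 3 cultures at 50 mg/L BPA and 3 at 300 mg/L BPA. The BPA was dissolved in ethanol, so every group carried the solvent, and all were sampled after 180 min. The labels name no strain. They describe biological replicates but not whether each came from its own pre-culture, so the p-values measure the spread between these 9 cultures. The question put to these genes is whether factors and synthetases answered BPA alike.

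Translation begins when initiation factors load the small ribosomal subunit with the initiator tRNA, scan the mRNA to the start codon and join the large subunit. Elongation factors then deliver each aminoacyl-tRNA and move the ribosome on by a codon. The synthetases charge each tRNA with its own amino acid and fall into a pair of unrelated structural families, class I and class II. In yeast most of these genes are essential, strongly transcribed in growing cells, and closely tied to growth rate and amino acid supply.

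All values are log2 expression values, 1 per gene and array, and a difference of 1 is a doubling. The 37 genes were bright: their values lay between 9.34 and 13.58, far above the background limit of 2.05 to 2.20 set by probe sets for another yeast, Schizosaccharomyces pombe. The arrays were made comparable by the authors' RMA normalization, so a change is read against the rest of that array and carries no measure of total mRNA. RNA came from whole cultures, so a change in every cell and a change in some of the cells cannot be told apart. The genes TEF1, EFT1 and TIF1 had no probe set listed under their names. Their duplicates TEF2, EFT2 and TIF2, which encode the same proteins, rest on probe sets of a type that can match related sequences, so each of these 3 values may hold both copies. Replicate 2 of the 50 mg/L group stood apart from its group, and values that it moves most are also given without it.

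At 300 mg/L a few genes of each class changed. Of 19 factors 6 rose and 0 fell, and of 18 synthetases 3 fell and 0 rose, by limma with Benjamini-Hochberg adjustment over all 5449 genes at a threshold of 0.05. The risers were 5 initiation factor genes, TIF35, TIF11, TIF5, SUI1 and SUI3, and HYP2, which encodes eIF5A. The synthetase genes that fell were WRS1, GUS1 and FRS2, for tryptophan, glutamate and a subunit of the phenylalanine enzyme. The changes were small, from 1.19-fold for FRS2 and GUS1 to 1.41-fold for TIF35. In the same comparison 52.7% of all genes passed the test, 27.5% higher and 25.2% lower, against 9 of these 37 genes. The share of factors called higher, 6 of 19, was therefore near that of all genes, and the fewer calls among the 37 were not tested as a difference, nor was the factor class against the synthetase class. Some alternatives also called factors lower: 2 with median centring, and 3 each with the 50 mg/L group left out, an intensity trend, array weights or without replicate 2 of the 50 mg/L group. Groups at 300 mg/L and control that did not overlap were found for 19 of the 37 genes, next to 67.8% of all genes: 9 lay higher, next to 35.2%, and 10 lower, next to 32.6%. The median change was 0.08 for factors, -0.03 for synthetases and 0.01 for all genes on the log2 scale. The sign of each class median changed under 1 of 20 alternatives. Centred on spike-ins, the factor median was -0.0116, and centred on S. pombe probe sets, the synthetase median was 0.0173. Such a centring shifts all genes of an array alike, so it leaves the gap between the class medians as it was. Centred on the spike-ins, only WRS1 of the 37 genes was called, together with 28.5% of all genes. The spike-ins, 18 probe sets, are hybridization controls, so this centring is no measure of the amount of RNA.

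**Figure D1:**
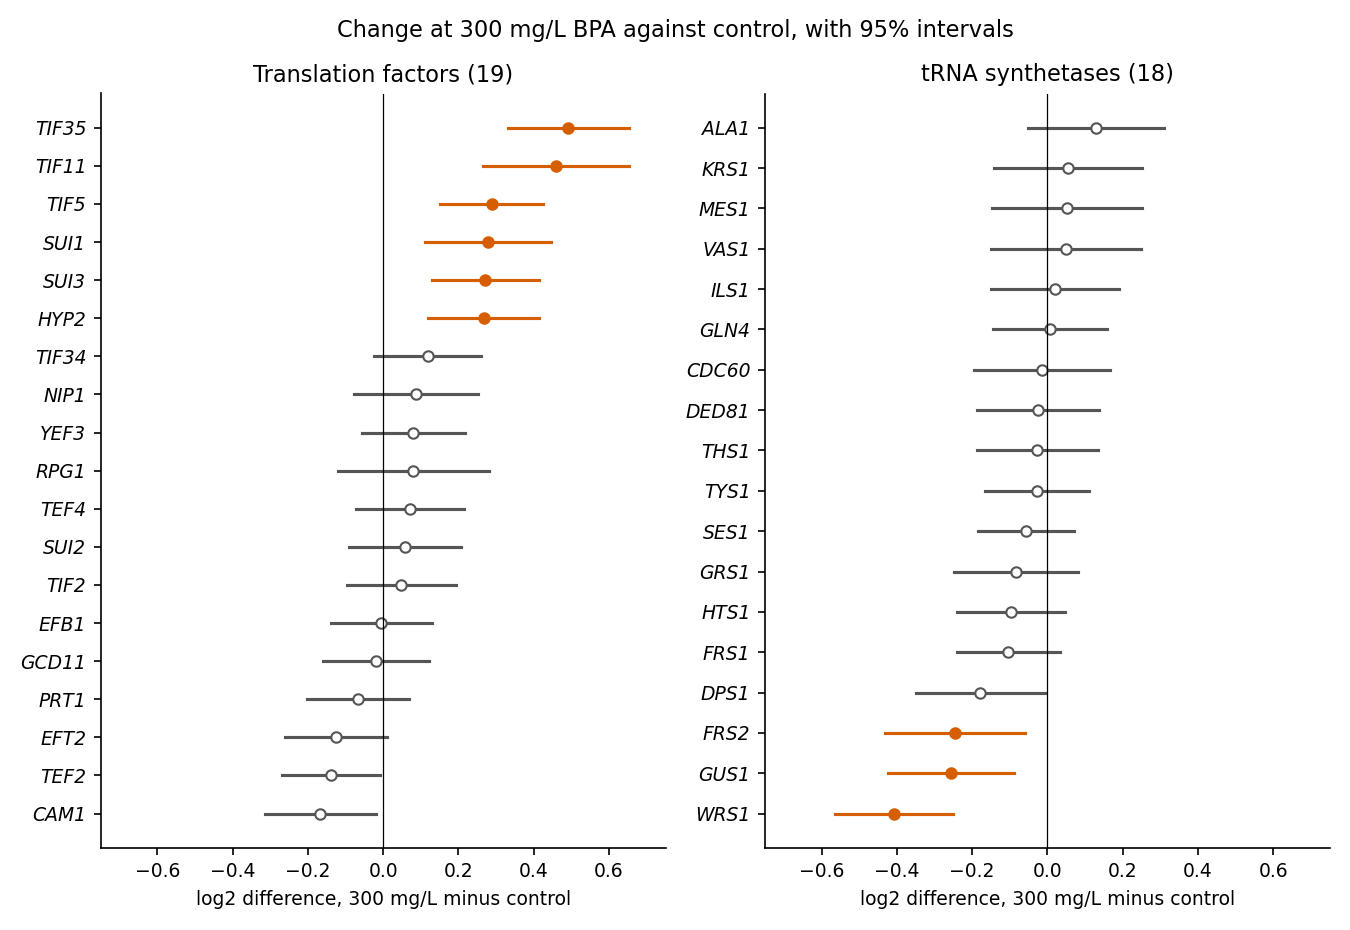
Log2 difference of each gene at 300 mg/L BPA minus control (x axis), for 19 translation factors and 18 tRNA synthetases sorted by size. Points are limma estimates from 9 arrays, bars their 95% intervals, and filled orange points passed an adjusted p of 0.05. The 6 called factors lie right of 0, up to 0.49 for TIF35, and the 3 called synthetases lie left of 0, down to -0.41 for WRS1.

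Among the initiation factors, the largest rises were in TIF35 and TIF11. TIF35 encodes eIF3g, an RNA-binding subunit of the eIF3 complex that organises the small subunit during scanning. It read 10.59, 10.73 and 10.74 in control cultures, 10.64, 10.76 and 10.70 at 50 mg/L, and 11.09, 11.21 and 11.23 at 300 mg/L. All 3 values at 300 mg/L lay above all 6 others, and the rise over control was 0.49 ± 0.07 (SE), or 1.41-fold (adjusted p = 0.000364 by limma). TIF11 encodes eIF1A, which binds the decoding site and helps find the start codon. Its values were 10.76, 10.63 and 10.84 in control cultures, 10.72, 10.52 and 10.81 at 50 mg/L, and 11.25, 11.16 and 11.20 at 300 mg/L. Here too the groups at 300 mg/L and below did not overlap, with a rise over control of 0.46 ± 0.09, or 1.37-fold (adjusted p = 0.00152 by limma).

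A further 3 initiation factor genes rose by about 1.2-fold. SUI1 encodes eIF1, the partner of eIF1A in start-codon choice. Its values were 10.81, 10.71 and 10.90 in control cultures, 10.79, 10.66 and 10.82 at 50 mg/L, and 11.09, 11.14 and 11.03 at 300 mg/L. TIF5 encodes eIF5, which triggers GTP hydrolysis by eIF2 at the start codon. It read 9.83, 9.91 and 9.93 in control cultures, 9.83, 9.86 and 9.91 at 50 mg/L, and 10.17, 10.21 and 10.16 at 300 mg/L. SUI3 encodes the beta subunit of eIF2, the GTP-binding complex that carries the initiator tRNA. Its values were 10.61, 10.69 and 10.72 in control cultures, 10.63, 10.74 and 10.68 at 50 mg/L, and 10.98, 10.95 and 10.90 at 300 mg/L. For each of these genes every value at 300 mg/L exceeded every value in the other groups. Over control the rises were 0.28 ± 0.07 for SUI1, 0.29 ± 0.06 for TIF5 and 0.27 ± 0.06 for SUI3, with adjusted p of 0.0104, 0.00314 and 0.005 by limma. Without replicate 2 of the control group, SUI1 was higher by 0.23 with an adjusted p of 0.0511.

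Of the other subunits of these complexes among the 37 genes, 0 of 6 were called, next to 52.7% of all genes. In eIF3, next to TIF35 at 0.49, TIF34 (eIF3i, which binds directly to eIF3g) differed from control by 0.12 ± 0.06, NIP1 (eIF3c) by 0.09 ± 0.07, RPG1 (eIF3a, the scaffold) by 0.08 ± 0.09 and PRT1 (eIF3b) by -0.07 ± 0.06. In eIF2, next to SUI3 at 0.27, SUI2 (the alpha subunit, the target of the Gcn2 kinase) differed by 0.06 ± 0.07 and GCD11 (the GTP-binding gamma subunit) by -0.02 ± 0.06. HCR1, for the loosely bound subunit eIF3j, is not among the 37 genes and is named because it belongs to eIF3. It read 10.87, 10.83 and 10.81 at 300 mg/L, against 10.50, 10.59 and 10.57 in control cultures, and rose by 0.28 ± 0.06 without overlap (adjusted p = 0.00293 by limma). The differences in change between subunits were not tested. TIF2, for the RNA helicase eIF4A that unwinds mRNA leaders, read 12.24, 12.34 and 12.39 in control cultures, 12.38, 12.41 and 12.32 at 50 mg/L, and 12.35, 12.36 and 12.40 at 300 mg/L. Its groups overlapped throughout, and the difference at 300 mg/L had a 95% interval of -0.10 to 0.19.

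Where 52.7% of all genes were called, 1 of the 7 elongation factors measured was, HYP2. Its protein eIF5A relieves ribosomes stalled on difficult peptide bonds, and its values are given although it ranked below the 5 largest rises. HYP2 read 12.26, 12.36 and 12.43 in control cultures, 12.43, 12.36 and 12.34 at 50 mg/L, and 12.58, 12.61 and 12.65 at 300 mg/L. The values at 300 mg/L stood above the rest, by 0.27 ± 0.07 over control (adjusted p = 0.00707 by limma). TEF2, for eEF1A, which brings aminoacyl-tRNAs to the ribosome, read 13.51, 13.50 and 13.58 in control cultures, 13.51, 13.53 and 13.49 at 50 mg/L, and 13.40, 13.38 and 13.40 at 300 mg/L. EFT2, for the translocase eEF2, read 12.87, 12.91 and 12.90 in control cultures, 12.96, 13.03 and 12.90 at 50 mg/L, and 12.76, 12.78 and 12.77 at 300 mg/L. In both genes all 3 values at 300 mg/L were below all others, but the differences from control, -0.14 ± 0.06 and -0.12 ± 0.06, did not pass (adjusted p = 0.0685 and 0.11 by limma).

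The gamma subunit of eEF1B, which helps recharge eEF1A with GTP, has a pair of genes, TEF4 and CAM1. CAM1 read 10.44, 10.38 and 10.38 in control cultures, 10.48, 10.37 and 10.35 at 50 mg/L, and 10.27, 10.16 and 10.27 at 300 mg/L. TEF4 read 11.95, 12.10 and 12.08 in control cultures, 12.05, 12.01 and 12.02 at 50 mg/L, and 12.08, 12.12 and 12.13 at 300 mg/L. CAM1 was lower in every culture at 300 mg/L, at -0.17 ± 0.07 against control (adjusted p = 0.055 by limma), while TEF4 overlapped its controls at 0.07 ± 0.06. EFB1, the catalytic subunit of the same exchange factor, differed by -0.01 ± 0.06, and YEF3, the fungal ATPase eEF3, by 0.08 ± 0.06. The fit without replicate 2 of the 50 mg/L group called TEF2, EFT2 and CAM1 lower at 300 mg/L, with adjusted p of 0.0306, 0.0408 and 0.0336. Without replicate 1 of the 50 mg/L group CAM1 was called too, with an adjusted p of 0.0469. Of the 20 alternatives, 5 called TEF2, 4 called EFT2 and 6 called CAM1. Across them the difference of TEF2 ran from -0.2306 to 0.0356, so its direction depended on the processing. EFT2 and CAM1 stayed below 0.

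**Figure D2:**
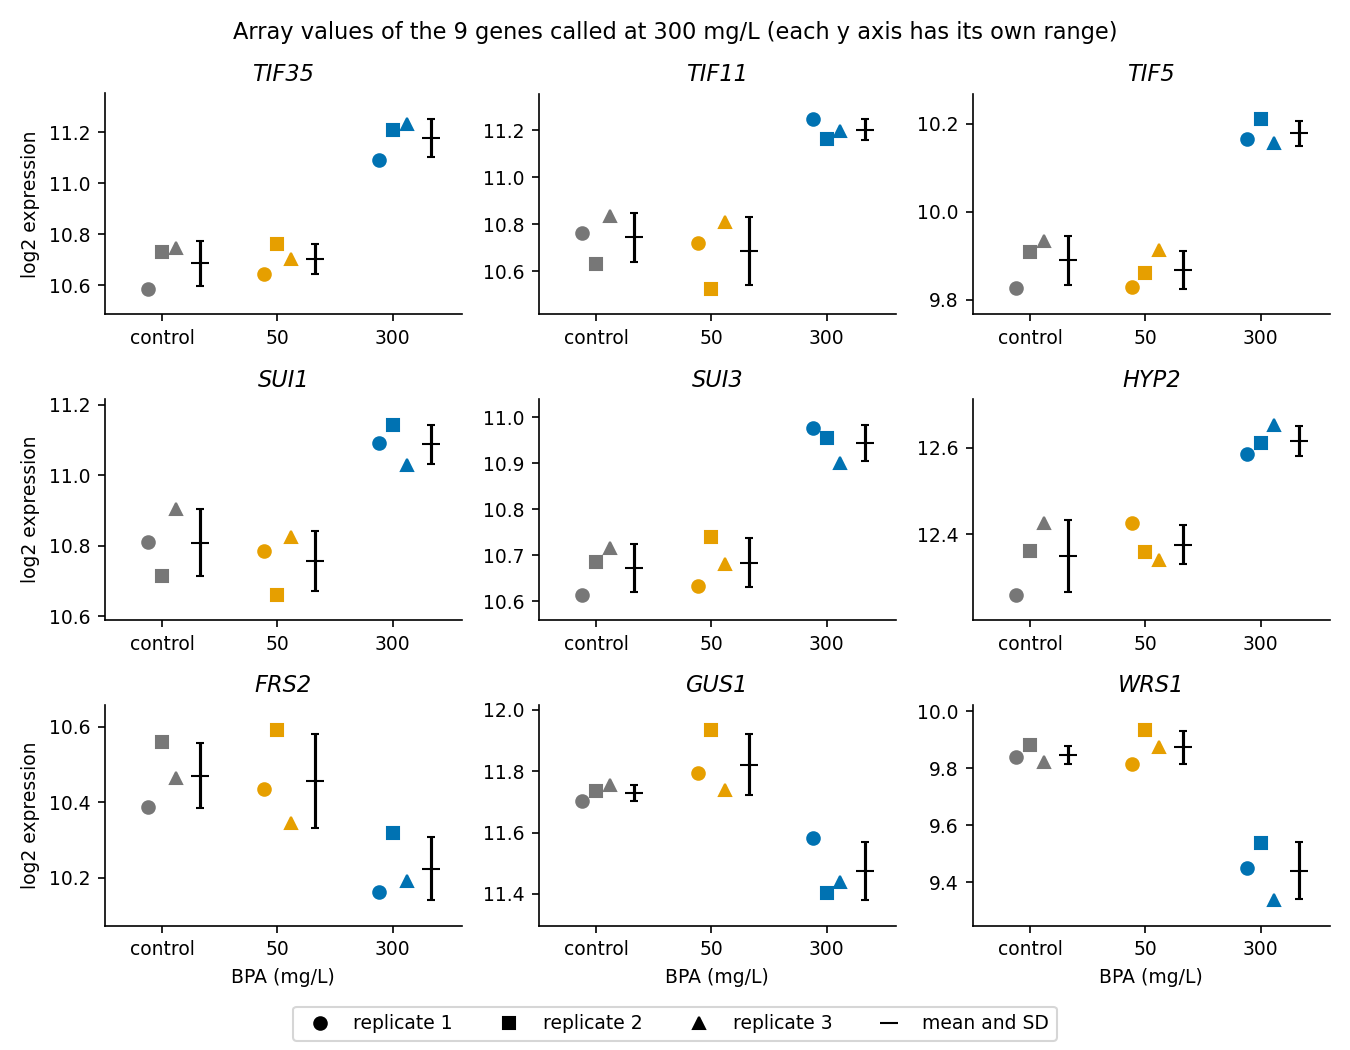
Log2 expression of the 9 genes called at 300 mg/L against control (y axis, its own range in each panel) in the 3 groups (x axis, BPA in mg/L). Symbols mark replicates 1 to 3 and the black bar the mean with its SD; in each panel the 3 values at 300 mg/L lie apart from the 3 control values, above them in the 6 factors and below them in the 3 synthetases.

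Among the synthetases, WRS1 had the largest difference. It encodes the tryptophanyl-tRNA synthetase, a class I enzyme. Its values were 9.84, 9.88 and 9.82 in control cultures, 9.82, 9.93 and 9.87 at 50 mg/L, and 9.45, 9.54 and 9.34 at 300 mg/L. It fell by 0.41 ± 0.07 against control, or 1.33-fold (adjusted p = 0.000904 by limma), and it passed under all 20 alternative settings, with adjusted p from 4.91e-05 to 0.0261. GUS1, the glutamyl-tRNA synthetase and also class I, read 11.70, 11.74 and 11.75 in control cultures, 11.80, 11.93 and 11.74 at 50 mg/L, and 11.58, 11.40 and 11.44 at 300 mg/L. It fell by 0.26 ± 0.08 (adjusted p = 0.016 by limma), again with no overlap between 300 mg/L and the other groups. Without replicate 2 or without replicate 3 of the 300 mg/L group its adjusted p was 0.0574 and 0.0555.

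The phenylalanyl-tRNA synthetase is built from products of both FRS1 and FRS2, and FRS2, for the alpha subunit, was called lower. FRS2 read 10.39, 10.56 and 10.46 in control cultures, 10.43, 10.59 and 10.34 at 50 mg/L, and 10.16, 10.32 and 10.19 at 300 mg/L. FRS1, for the beta subunit, read 11.06, 11.12 and 11.12 in control cultures, 11.07, 11.06 and 10.97 at 50 mg/L, and 10.97, 11.02 and 11.00 at 300 mg/L. Both genes lay below their controls without overlap. FRS2 fell by 0.25 ± 0.08 (adjusted p = 0.0304 by limma) and FRS1 differed by -0.10 ± 0.06 (0.18). The call for FRS2 was the least firm of the 9. It was lost without replicate 1 or 3 of the 300 mg/L group and without replicate 2 or 3 of the control group, with adjusted p of 0.103, 0.0873, 0.117 and 0.0655. It was also lost with quantile normalization and with centring on S. pombe probe sets, at 0.0816 and 0.0727.

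The other 14 synthetases were not called, with differences from control between -0.18 and 0.13. The lowest was DPS1, for aspartate, at -0.18 ± 0.08 (adjusted p = 0.0755 by limma, and 0.0163 without replicate 2 of the 50 mg/L group). HTS1, VAS1, ALA1 and GRS1, for histidine, valine, alanine and glycine, each encode the cytosolic enzyme and a mitochondrial form. They differed from control by -0.10 ± 0.06, 0.05 ± 0.09, 0.13 ± 0.08 and -0.08 ± 0.07. Of these 4 genes 0 passed, next to 52.7% of all genes. Also near 0 were CDC60 at -0.01 ± 0.08, ILS1 at 0.02 ± 0.08 and MES1 at 0.05 ± 0.09, for leucine, isoleucine and methionine. GLN4 (glutamine) stood at 0.01 ± 0.07, KRS1 (lysine) at 0.06 ± 0.09, DED81 (asparagine) at -0.02 ± 0.07 and THS1 (threonine) at -0.03 ± 0.07. TYS1 (tyrosine) stood at -0.03 ± 0.06 and SES1 (serine) at -0.06 ± 0.06. In class I 2 of 8 genes fell, and in class II 1 of 10, next to 25.2% of all genes. Over the 28 genes of both classes of protein that were not called, the 95% intervals stayed within -0.35 and 0.31, so a change above 1.27-fold lay outside every one of them. Each is an interval for a single gene on the RMA values. It allows neither for the number of genes nor for the shifts under other scalings.

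Against 50 mg/L, the cultures at 300 mg/L gave 11 calls among the 37 genes, 6 higher and 5 lower, with 52.8% of all genes called, 27.5% higher and 25.3% lower. Groups without overlap were found for 16 of the 37 genes, next to 59.6% of all genes: 9 lay higher, next to 30.9%, and 7 lower, next to 28.8%. The 300 mg/L cultures are shared with the comparison above, so the values are given side by side and not as support. TIF11 was higher by 0.52 ± 0.09, TIF35 by 0.48 ± 0.07, SUI1 by 0.33 ± 0.07, TIF5 by 0.31 ± 0.06, SUI3 by 0.26 ± 0.06 and HYP2 by 0.24 ± 0.07. On the lower side stood WRS1 at -0.43 ± 0.07, GUS1 at -0.35 ± 0.08, DPS1 at -0.25 ± 0.08, FRS2 at -0.23 ± 0.08 and EFT2 at -0.19 ± 0.06. Adjusted p ran from 0.000432 for TIF35 to 0.0383 for FRS2 by limma. The DPS1 call was lost without replicate 2 or 3 of the 300 mg/L group, at adjusted p of 0.0605 and 0.0642, and the EFT2 call without replicate 1 or 3, at 0.0684 and 0.0627. The FRS2 call was lost without 1 of 5 single arrays, with adjusted p up to 0.123. Without replicate 2 of the 50 mg/L group CAM1 was called lower as well, at -0.18 with an adjusted p of 0.0426.

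At 50 mg/L against control 0 of the 37 genes passed, as did 0% of all 5449 genes by limma, and 0 of the 37 reached an unadjusted p of 0.05, against 389 of all genes. The synthetases nearest to a call were ILS1 and SES1. ILS1 read 11.47, 11.73 and 11.55 at 50 mg/L, against 11.40, 11.44 and 11.46 in control cultures, a difference of 0.15 ± 0.08. SES1 read 11.06, 11.04 and 11.05 at 50 mg/L, against 11.12, 11.15 and 11.13 in control cultures, a difference of -0.09 ± 0.06. Both had an adjusted p of 0.581 by limma. These were the 2 of 37 genes without overlap between the groups, next to 12.6% of all genes, 6.06% higher and 6.5% lower. Of the factors, RPG1 at 0.11 ± 0.09 and EFB1 at -0.07 ± 0.06 had the smallest p, with adjusted p of 0.625 and 0.662. RPG1 read 10.47, 10.84 and 10.62 at 50 mg/L, against 10.49, 10.60 and 10.50 in control cultures, so its difference came mostly from replicate 2. Without that array the differences at 50 mg/L were 0.02 for RPG1, -0.04 for EFB1, 0.07 for ILS1 and -0.08 for SES1. The 95% intervals of all 37 genes lay within -0.25 and 0.32, so a change above 1.25-fold lay outside each. These too are intervals for single genes on the RMA values, without allowance for other scalings.

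The synthetases leaned upwards at 50 mg/L through 1 array. Their median was 0.05 above control and 14 of 18 were above it. In replicate 2 of the 50 mg/L group the median synthetase stood 0.17 above its control mean, against -0.03 and 0.02 in replicates 1 and 3. That array held the highest of the 9 values for 13 of 18 synthetases and for 5 of 19 factors, next to 23.6% of all genes. Without it the synthetase median at 50 mg/L was -0.0036, and 8 of 18 lay above control. The median of the factors was -0.02, 0.00 and 0.00 from control in the 3 arrays at 50 mg/L, and 0.07, 0.08 and 0.08 at 300 mg/L. The median of the synthetases at 300 mg/L was -0.04, -0.01 and -0.08. The median of the factors less that of the synthetases was 0.01 ± 0.02 in control cultures, -0.06 ± 0.09 at 50 mg/L and 0.12 ± 0.03 at 300 mg/L (SD, n = 3), a description with no test.

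**Figure D3:**
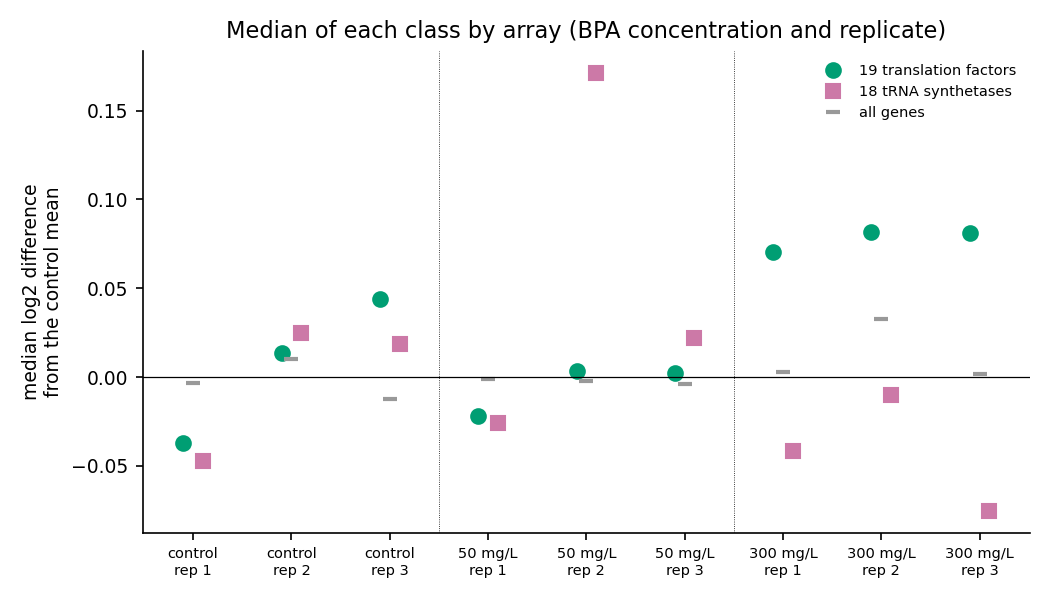
Median log2 difference from each gene's control mean (y axis) on each of the 9 arrays (x axis), for 19 factors (circles), 18 synthetases (squares) and all 5449 genes (dashes). Factors stand above synthetases on all 3 arrays at 300 mg/L, and the synthetases reach 0.17 on replicate 2 at 50 mg/L.

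Gene length moved with both results. The 6 factors that rose at 300 mg/L were 327 to 1218 bases long. Of the 11 factors of up to 1248 bases 6 rose, and of the 8 factors of 1377 bases or more 0 rose, a split chosen after seeing the values. Split in the gap between those lengths, 32.1% of the shorter and 22.9% of the longer of all genes rose. The synthetases were longer, with a median of 1896 bases against 1218 for the factors. At 300 mg/L against control, Spearman's rho between length and change was -0.55 across the 19 factors, 0.61 across the 18 synthetases and -0.09 across all 5449 genes. In replicate 2 at 50 mg/L, set against the mean of replicates 1 and 3, rho was 0.63, 0.64 and 0.61 over the same sets. These are descriptions across genes that share the same arrays, not tests. On that array the long VAS1 stood 0.29 above the mean of replicates 1 and 3 and RPG1 0.29 above, while the short TIF11 stood at -0.24 and SUI1 at -0.14.

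The same pattern ran through the transcriptome on that array. Among 1097 genes of at most 660 bases the median stood at -0.18 from control in replicate 2 at 50 mg/L, and among 1089 genes of 2109 bases or more at 0.29. At 300 mg/L the medians of these shortest genes were 0.11, 0.12 and 0.14, and SUI1, TIF11 and HYP2 belong to that length class. Those of the longest genes were 0.00, 0.04 and -0.02, and those of genes of 1032 to 1470 bases -0.05, -0.02 and -0.05. With each array's trend on length removed, an alternative chosen after seeing the data, 7 of the 9 calls at 300 mg/L remained. TIF35 was then higher by 0.51, TIF11 by 0.37, TIF5 by 0.34 and SUI3 by 0.29, and WRS1, GUS1 and FRS2 stood at -0.36, -0.23 and -0.20. SUI1 and HYP2 lost their calls, at 0.11 and 0.18 with adjusted p of 0.154 and 0.0547 by limma, and TIF34 gained one, at 0.16 with 0.034. The synthetase median at 50 mg/L became -0.0208. At 300 against 50 mg/L 7 of the 11 calls remained. SUI1 stood at 0.10, HYP2 at 0.08, EFT2 at -0.09 and FRS2 at -0.17, with adjusted p of 0.179, 0.359, 0.184 and 0.0617 by limma, while ALA1, NIP1 and TEF4 gained calls at 0.16, 0.19 and 0.15.

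Control probe sets for RNA integrity gave a mixed reading. For the actin gene ACT1, the 3' probe set less the 5' one was 0.66, 0.56 and 0.66 in control cultures, 0.69, 0.75 and 0.57 at 50 mg/L, and 0.62, 0.60 and 0.64 at 300 mg/L, so the groups overlapped. For 18S ribosomal RNA the same difference was -0.64, -1.02 and -0.82 in control cultures, -1.04, -1.65 and -0.67 at 50 mg/L, and 0.39, 0.34 and 0.37 at 300 mg/L. Replicate 2 at 50 mg/L had the lowest 18S difference of the 9 arrays and, by a small margin, the highest ACT1 difference, while on ACT1 replicate 3 lay about as far from its group on the other side. Their part in the changes above was not tested.

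**Figure D4:**
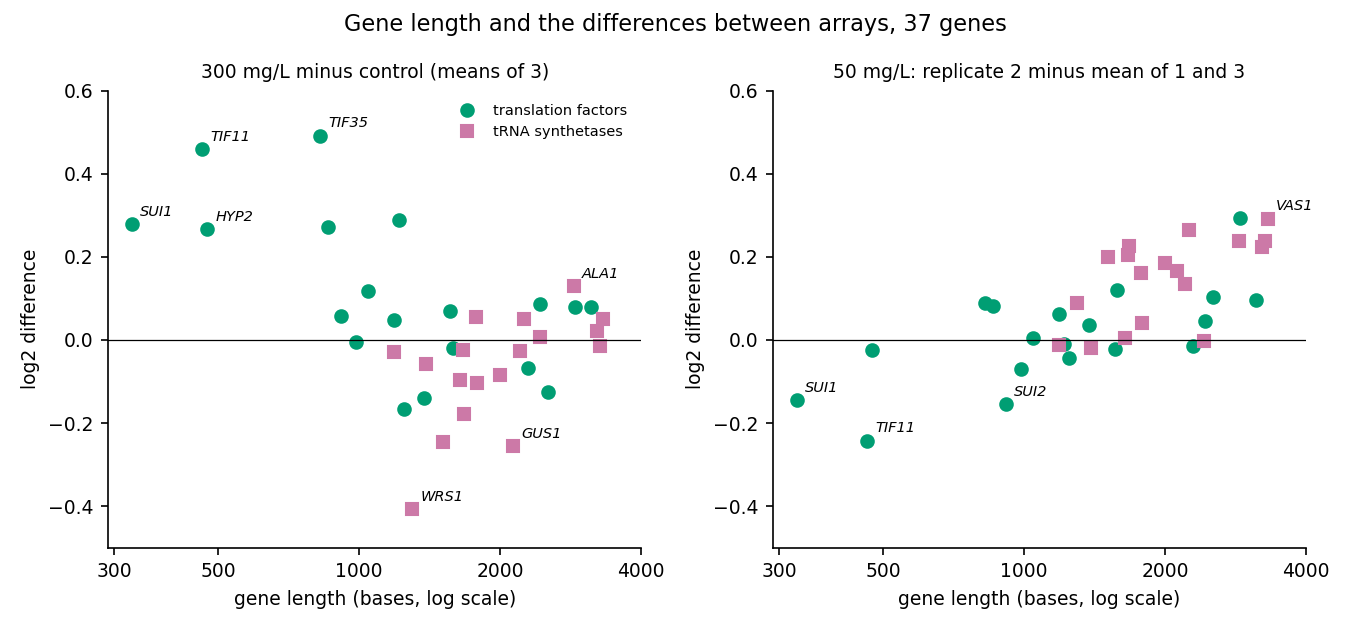
Gene length in bases (x axis, log scale) against log2 differences (y axis) for 19 factors (circles) and 18 synthetases (squares). Left, 300 mg/L minus control, where the short TIF11 and TIF35 lie highest and WRS1 lowest; right, replicate 2 at 50 mg/L minus the mean of replicates 1 and 3, which runs from -0.24 for TIF11 to 0.29 for the long VAS1.

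Other genes of translation, listed by function, place the 37 in context at 300 mg/L against control. Of 16 other initiation factor genes 5 rose and 0 fell, with a median of 0.18, a share of rises near the 27.5% of all genes. DED1, a helicase that unwinds long mRNA leaders, read 10.57, 10.82 and 10.69 at 300 mg/L, against 9.52, 9.46 and 9.43 in control cultures, a rise of 1.22 ± 0.18 or 2.34-fold (adjusted p = 0.000318 by limma). TIF6, which keeps new large subunits from joining too early, rose by 0.57 ± 0.08. This list is open to single arrays and to the fit: 7 rose and 1 fell without replicate 1 of the 50 mg/L group, and 7 rose and 3 fell without its replicate 2. With array weights 8 rose and 4 fell, and with a replicate block 6 rose and 1 fell. With the 50 mg/L group left out, and with the length trend removed, 8 rose and 2 fell. Centred on spike-ins, 3 rose and 0 fell.

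Of 8 other genes of elongation, termination and recycling 3 rose and 1 fell, near the 52.7% of all genes called, and the list holds close relatives of HYP2 and YEF3. ANB1 encodes the second eIF5A of yeast, made when oxygen is low. It read 7.35, 7.37 and 7.51 at 300 mg/L, against 8.00, 8.05 and 8.19 in control cultures, a fall of 0.67 ± 0.16 (adjusted p = 0.00468 by limma), where HYP2 rose by 0.27. HEF3, the little-expressed relative of YEF3, read 6.10, 5.97 and 6.03 at 300 mg/L, against 5.50, 5.29 and 5.28 in control cultures. It rose by 0.67 ± 0.09 (adjusted p = 0.000174 by limma), where YEF3 stood at 0.08. SUP35, the termination factor eRF3, rose by 0.61 ± 0.10.

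Genes of the mitochondrial translation system were mostly lower, where 25.2% of all genes fell. All 6 mitochondrial translation factor genes fell, with a median of -0.65. MEF1, a mitochondrial elongation factor, read 8.20, 8.23 and 8.26 at 300 mg/L, against 9.44, 9.24 and 9.10 in control cultures, a 2.04-fold fall (adjusted p = 1e-05 by limma), and MEF2 fell by 0.83 ± 0.11. Of 14 mitochondrial synthetase genes 11 fell and 1 rose, with a median of -0.39, beside 3 of 18 cytosolic ones at a median of -0.03. MST1, for threonine, fell by 0.90 ± 0.10 and MSE1, for glutamate, by 0.84 ± 0.08, while MSR1, for arginine, rose by 0.58 ± 0.09. The difference between the lists was not tested.

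The remaining lists were short. The 18 synthetases do not cover all of cytosolic aminoacylation. Of 3 other such genes with a probe set 1 rose and 0 fell, where 27.5% of all genes rose. YHR020W rose by 0.44 ± 0.07 (adjusted p = 0.000698 by limma, and 0.14 centred on spike-ins). That difference was larger in size than any among the 18 synthetases. ARC1, a cofactor that binds tRNA for the methionine and glutamate enzymes, stood at -0.10 ± 0.06. Of 5 genes of general amino acid control, the pathway that senses uncharged tRNA, 2 rose, next to 27.5% of all genes, and 0 were called centred on spike-ins. They were GCN4, its transcription factor, at 0.28 ± 0.08 and YIH1, an inhibitor of the Gcn2 pathway, at 0.27 ± 0.09, with adjusted p of 0.0135 and 0.0274 by limma. Without replicate 1 of the control group neither was called, at adjusted p of 0.054 and 0.0898. YIH1 also lost its call without control replicate 2 and without 300 mg/L replicate 1 or 2, at 0.062, 0.075 and 0.0736. GCN2, the kinase that senses uncharged tRNA, stood at 0.02 ± 0.08.

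**Figure D5:**
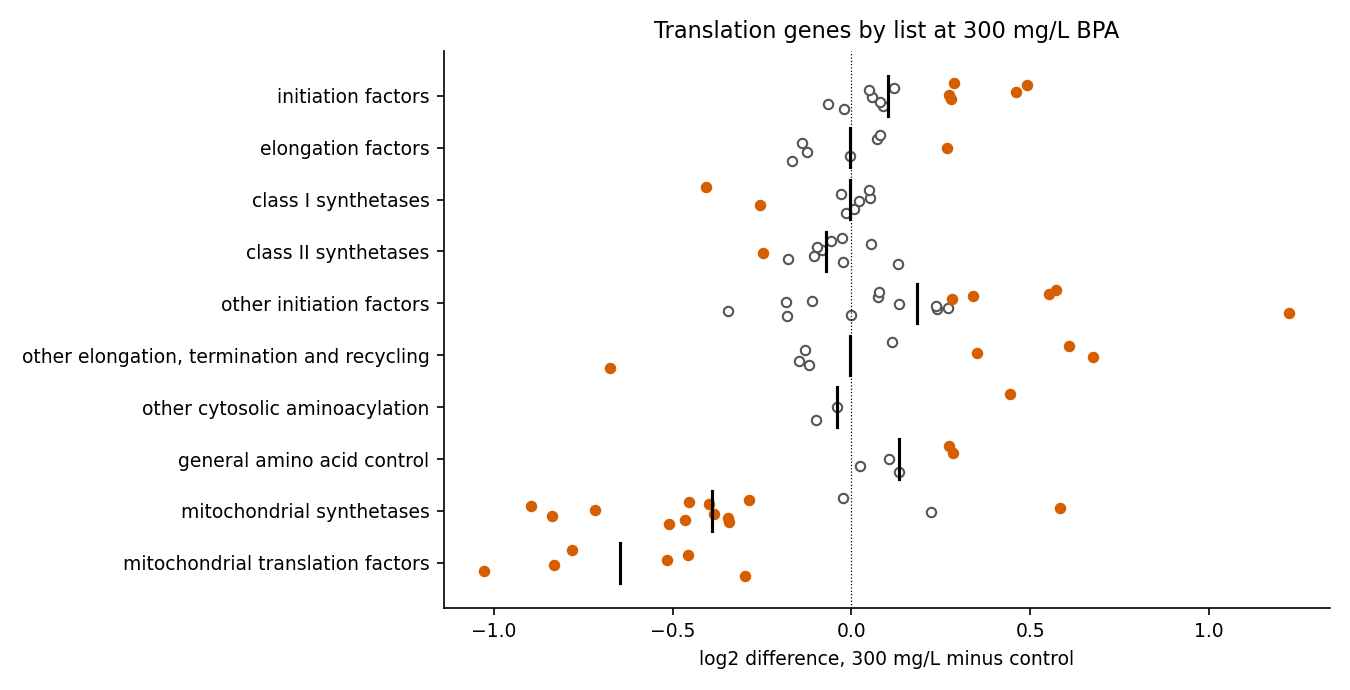
Log2 difference at 300 mg/L BPA minus control (x axis) for each measured gene, by list (y axis); filled orange points passed an adjusted p of 0.05 by limma and vertical bars are list medians. The cytosolic lists centre near 0, from -0.07 to 0.18, and the 2 mitochondrial lists lie lower, at -0.39 and -0.65.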

How the data were processed

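Each culture was measured on 1 single-colour oligonucleotide array, labelled from the 3' end of total RNA, per the labels' protocols. The authors deposited a single log2 value for each probe set and array; RMA, affy and limma are named in the submitters' processing notes, with no versions. Probe sets were named through the platform annotation and the R64 gene table (5498 of 10928 to an S. cerevisiae gene, 12 symbols updated). The highest probe set of a gene was kept, and each of the 37 genes has 1. The table's gene lengths, 97.0% multiples of 3, are mostly coding lengths. Sequences were not used here.

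Here limma 3.58.1, under R 4.3.3, was fitted over all 9 arrays with contrasts between the 3 groups and moderated by eBayes, two-sided, with Benjamini-Hochberg adjustment over 5449 genes and a threshold of 0.05. Errors are SEs of that fit or SDs over 3 arrays. The number of arrays limits the precision. Background is the 95th percentile of 1746 S. pombe probe sets. The procedure was also run on simulated arrays with independent noise for each gene and few changed genes. That setting is unlike these arrays, so the simulation does not bear on the calls. Alternatives were other scalings, probe set rules, fits and weights, a replicate block and leaving out each array. Figures used matplotlib 3.10.9. The genes and lists were chosen with earlier results of these data known, so lists were described by counts and medians, without tests. Array values are given, in each class, for up to 5 of the largest called rises and falls at 300 mg/L, the paralogue pairs and both phenylalanine subunits; of other lists, up to 2 rises and 2 falls are named.

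Same-numbered control and 50 mg/L arrays deviated together, with correlations over genes of 0.19 to 0.42. Arrays of these groups with different numbers ran from -0.43 to 0.18. Same-numbered pairs with 300 mg/L ran from -0.34 to 0.16, and those with different numbers from -0.30 to 0.40. Whether the numbers mark pairs is therefore not settled. The main fit was unpaired, and a replicate block was an alternative.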

Additional observations from a re-analysis of the deposited data

Results flagged for a closer look

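A signal outside the gene comparisons was higher at 300 mg/L than in every control array. The control probe set for the 3' end of 18S ribosomal RNA read 13.34, 13.33 and 13.33 at 300 mg/L, against 12.48, 12.09 and 12.27 in control cultures, a difference of 1.05 on the log2 scale. The probe set for the 5' end of the same RNA differed by -0.14.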

How the results depend on the processing

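Of 20 alternatives at 300 mg/L against control, 18 left the count of called genes within 1.5 times of 9; array weights, whose fit stopped before converging, gave 15, and centring on spike-ins gave 1. At 300 against 50 mg/L the spike-in centring gave 2. Of all genes it called 1553 and 1428 in these comparisons, where the values as reported gave 2872 and 2878. Leaving out single arrays gave 7 to 13 calls at 300 mg/L against control, 8 to 11 against 50 mg/L, and 0 at 50 mg/L. The replicate block gave 9, 11 and 0 calls and changed no call; the block on the 6 control and 50 mg/L arrays alone, chosen after seeing the data, also gave 0.

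No gene called in the main fit changed direction under any alternative. The factor median at 300 mg/L against control was 0.1096 with quantile normalization, 0.1251 centred on S. pombe probe sets, -0.0116 on spike-ins and 0.046 with array weights; against 50 mg/L it was 0.1274 on S. pombe probe sets and 0.0619 with weights. The spike-in centring put the synthetase median at -0.1194, and at 50 mg/L the factor and synthetase medians at -0.1167 and -0.0621; it moved the median of all genes at 50 mg/L by -0.11. The length adjustment put the synthetase median at 50 mg/L at -0.0208. Without single arrays the factor medians ran from 0.0587 to 0.0883, 0.0691 to 0.1004 and -0.0345 to 0.0023 in the 3 comparisons, and the synthetase medians from -0.0598 to -0.0078, -0.1148 to -0.0318 and -0.0036 to 0.0802. The causes were not tested.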
